A study of Mus musculus with 4 samples.

Results

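The miR-17 to miR-92a cluster is a group of miRNAs cut from 1 long primary transcript, and the 7 mature miRNAs described here are mmu-miR-17-5p, mmu-miR-17-3p, mmu-miR-18a-5p, mmu-miR-19a-3p, mmu-miR-20a-5p, mmu-miR-19b-3p and mmu-miR-92a-3p, where mmu stands for the mouse and is left out from here on. They were found by their names: every sequence that the deposited table assigns to 1 of these 7 names was taken, and the sequences of a name were summed. This gave 302 of the 85704 sequences in the table, and 7 of its 1029 miRNA names. The RNAs were those bound to the Ago proteins of the brain (cortex and hippocampus combined) of male C57BL/6J mice, labelled BL6, which carried no transgene or knockout according to the labels and were 2 months (young) or 18 months (old) of age. There were 2 libraries for each age, and neither the labels nor the methods say how many animals stand behind a library. P values therefore measure only the spread between these libraries. The Ago proteins were captured with a peptide of GW182 that holds all 4 Ago proteins, and the bound RNAs are called R-sRNAs, for RNAs in the RNA-induced silencing complex (RISC).

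A miRNA guides Ago to messenger RNAs by pairing of its seed, the bases that start at position 2, so members of a cluster that share a seed are counted as 1 family. The cluster is known for driving growth and division, in lymphomas and in the progenitor cells of the developing cortex, and for its part in the formation of new neurons in the adult hippocampus. Among well-studied targets of the miR-17 family is the cell cycle inhibitor Cdkn1a.

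The sequences are shown because the seeds define the families that are compared. They are the mature RNAs of RefSeq on GRCm38, where all 7 names were found, written 5′ to 3′ with positions 2 to 8, the seed, in capitals. The first 2 share a seed, as do the next 2, while each of the last 3 has a seed of its own.
miR-17-5p: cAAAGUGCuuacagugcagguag
miR-20a-5p: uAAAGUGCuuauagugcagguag
miR-19a-3p: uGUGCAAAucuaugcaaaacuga
miR-19b-3p: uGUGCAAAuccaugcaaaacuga
miR-92a-3p: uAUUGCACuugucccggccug
miR-18a-5p: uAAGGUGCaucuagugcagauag
miR-17-3p: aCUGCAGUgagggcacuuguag

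Counted from 1 at the 5′ end, miR-20a-5p differs from miR-17-5p at 2 positions, C1U and C12U, both outside the seed. miR-18a-5p differs from miR-17-5p at 6 positions, C1U, A4G, U9A, A11C, C12U and G20A, of which A4G lies in the seed and makes a family of its own. miR-19b-3p differs from miR-19a-3p by U11C alone. On the plus strand of chromosome 14 the mature RNAs lie at chr14:115043684-115043706 (miR-17-5p), chr14:115043721-115043742 (miR-17-3p), chr14:115043867-115043889 (miR-18a-5p), chr14:115044048-115044070 (miR-19a-3p), chr14:115044183-115044205 (miR-20a-5p), chr14:115044358-115044380 (miR-19b-3p) and chr14:115044476-115044496 (miR-92a-3p). Their 6 hairpins span 836 bases, and all 6 fall inside exon 2 (chr14:115043271-115046727) of Mir17hg, a long noncoding RNA gene at chr14:115042879-115046727. Identical mature copies of miR-92a-3p and miR-19b-3p are annotated in a paralogous cluster on the minus strand of the X chromosome, at chrX:52741854-52741874 and chrX:52741991-52742013, so these 2 names can hold reads from 2 loci.

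The libraries held 9067007 to 11388999 reads behind the CPM scale (reads per 1000000), so that 3 reads were worth 0.263 to 0.331 CPM. The neuronal miRNAs miR-124-3p, miR-9-5p and miR-128-3p were abundant, summing to 184377 and 195044 CPM at 2 months and to 195706 and 169186 CPM at 18 months. They did not move together. Between the ages they differed by -0.35 ± 0.25, 0.07 ± 0.35 and 0.37 ± 0.30 on the log2 scale, in this order, and none was called. Of the 3 miRNAs listed for other organs, the liver miRNA miR-122-5p averaged 6.17 CPM and the muscle miRNAs miR-1a-3p and miR-133a-3p averaged 82.7 and 109 CPM. miR-133a-3p was called higher at 18 months, with 104 and 54.96 CPM in young and 129 and 147 CPM in old mice (0.86 ± 0.33 on the log2 scale, limma, adjusted p = 0.269).

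The cluster made up a small share of the RISC. Its summed level was 1902 and 2065 CPM in the 2-month libraries and 1547 and 1781 CPM in the 18-month libraries, so the ages did not overlap. In percent of all reads this was 0.190 (95% Wilson interval 0.188 to 0.193) and 0.207 (0.204 to 0.209) at 2 months, and 0.155 (0.152 to 0.157) and 0.178 (0.175 to 0.181) at 18 months. The intervals cover counting error only. The difference between the ages was -0.26 on the log2 scale with a two-sided exact permutation p of 0.333, the smallest that 2 against 2 libraries allow. After scaling by the median of ratios, which sets the middle of the genes equal between libraries, the difference was -0.04, and without miR-19b-3p and miR-92a-3p, the members with a copy on the X chromosome, it was -0.27 and the ages overlapped. It was -0.15 without replicate 1 of 18 months.

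Within the cluster the members differed widely in level. All are cut from the same transcript, but miR-19b-3p and miR-92a-3p can also come from the X chromosome. A read is here 1 whole small RNA, so levels of different members need no correction for length. The libraries were made by adapter ligation and PCR. Whether these took up all sequences equally well was not tested, so differences between members are differences in reads. miR-19b-3p averaged 629.5 ± 148 CPM (SD over the 4 libraries) and miR-92a-3p 614 ± 46.2 CPM. miR-17-5p followed with 272 ± 37.5 CPM and miR-20a-5p with 143 ± 32.4 CPM. The lowest were miR-18a-5p with 72.9 ± 16.7 CPM, miR-19a-3p with 60.9 ± 15.4 CPM and miR-17-3p with 31.3 ± 11.1 CPM. By mean level among the 1029 names, miR-19b-3p ranked 138 and miR-17-3p ranked 370. Neighbours in this order held their places in all 4 libraries, except miR-19b-3p and miR-92a-3p, which changed places between the ages. The spreads of miR-18a-5p and miR-19a-3p overlapped, though miR-18a-5p was the higher of the 2 in every library.

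**Figure D1:**
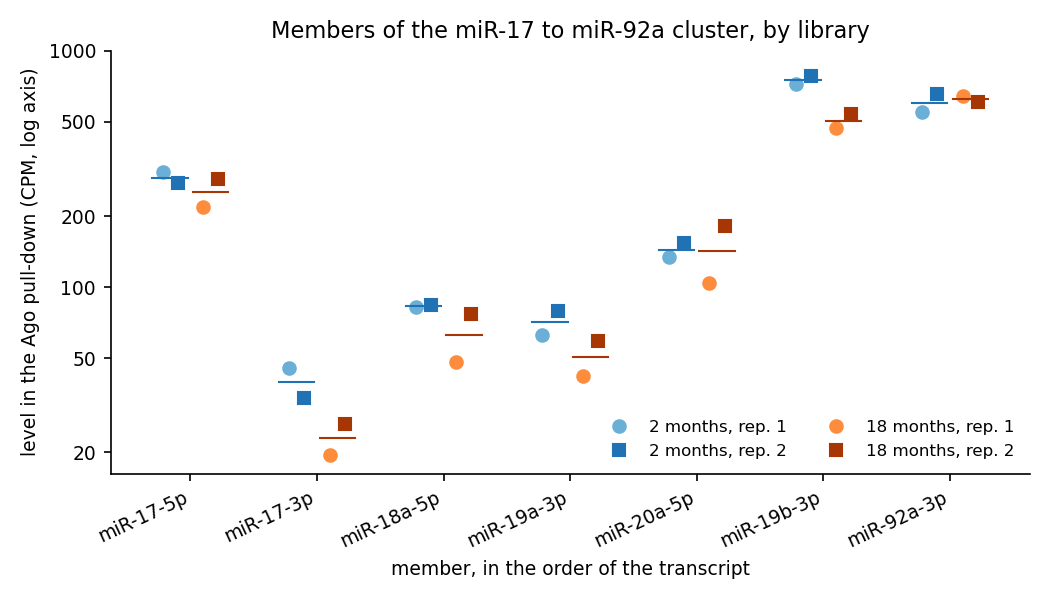
Level of each member in CPM (log axis) in the 4 libraries, with horizontal lines at the mean of each age. miR-19b-3p and miR-92a-3p lie highest and miR-17-3p lowest, and the 18-month libraries of miR-17-3p, miR-18a-5p, miR-19a-3p and miR-19b-3p lie below both 2-month libraries.

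Members with nearly the same sequence stood at different levels. The miR-19a hairpin starts 329 bases and the miR-19b-1 hairpin 634 bases downstream of the start of the miR-17 hairpin, and miR-19b-3p was 11.5 and 9.86 times as high as its near twin miR-19a-3p at 2 months and 11.2 and 9.14 times as high at 18 months. Of the miR-19b-3p reads, 95.2% matched the hairpins of chromosome 14 and of the X chromosome alike, so its level cannot be assigned to 1 locus. miR-17-5p was 2.28 and 1.80 times as high as miR-20a-5p at 2 months and 2.10 and 1.59 times as high at 18 months. The ages overlapped in both ratios, with differences of -0.07 and -0.15 on the log2 scale (two-sided exact permutation p = 0.667 for each).

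Summed by seed, the miR-19 family (miR-19a-3p and miR-19b-3p) took 41.2% and 41.9% of the cluster's reads at 2 months and 33.2% and 33.6% at 18 months. miR-92a-3p took 29.0% and 31.6% at 2 months and 41.6% and 34.3% at 18 months. The miR-17 family (miR-17-5p and miR-20a-5p) took 23.1% and 20.8% at 2 months and 20.9% and 26.3% at 18 months. miR-18a-5p held 3.12% to 4.34% and miR-17-3p 1.27% to 2.39%. Averaged over the libraries the order was the miR-19 family, miR-92a-3p, the miR-17 family, miR-18a-5p and miR-17-3p.

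The first 2 of these families did not keep their order. The miR-19 family was 1.42 and 1.32 times as high as miR-92a-3p in the 2-month libraries and 0.798 and 0.982 times as high in the 18-month libraries. Over the 4 libraries the log2 ratio was 0.14 ± 0.39 (SD), and the two-sided exact sign-flip test gave p = 0.5. The other neighbours kept their order in 4 of 4 libraries. miR-92a-3p exceeded the miR-17 family by 0.58 ± 0.30 on the log2 scale, the miR-17 family exceeded miR-18a-5p by 2.53 ± 0.17, and miR-18a-5p exceeded miR-17-3p by 1.25 ± 0.29. Each of these had an exact sign-flip p of 0.125 (0.167 after adjustment over the 4 pairs), which is the smallest that 4 libraries allow. The pairs were formed by ranking the families on their means over these same 4 libraries. The direction of each pair was thus set by the values tested, and the p values of the 4 pairs lend the order no support.

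**Figure D2:**
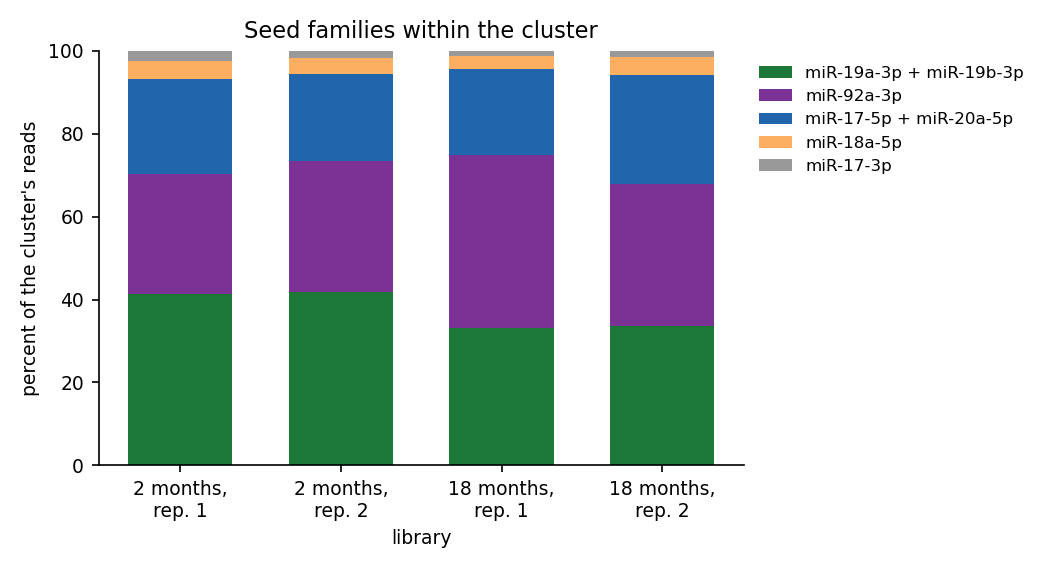
Percent of the cluster's reads in each seed family, 1 stacked bar for each library. The miR-19 family is the largest block at 2 months (41.2% and 41.9%), and miR-92a-3p is the largest block in the 18-month libraries (41.6% and 34.3%).

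A ratio of 2 miRNAs in 1 library does not depend on how the library was scaled. The log2 ratio of the miR-19 family to miR-92a-3p was 0.46 ± 0.07 at 2 months and -0.18 ± 0.21 at 18 months (SD, n = 2 each). Its difference between the ages, -0.63, was chosen for reporting after the values were seen, and its two-sided exact permutation p was 0.333. Leaving out 1 library at a time gave differences of -0.78 to -0.48.

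Between the ages, 2 of the 7 members were lower at 18 months in the limma fit (unadjusted p under 0.05), and none was higher. The threshold of 0.05 is that of the study, which applied it to single sequences with a test it does not name. Here it was applied to sums by miRNA name. Of the 456 miRNAs tested, 16.2% were called, 12.1% lower and 4.17% higher. After adjustment over all 456, 0.219% of the miRNAs (1) passed, and neither member was among them. The median log2 difference of the 7 was -0.44, where that of all tested miRNAs was -0.22.

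miR-19b-3p measured 721 and 785 CPM in young and 471 and 540 CPM in old mice. Both 18-month libraries lay below both 2-month libraries, and the fitted difference was -0.58 ± 0.21 (SE) on the log2(CPM + 1) scale (limma, adjusted p = 0.266). Its family partner miR-19a-3p measured 62.9 and 79.6 CPM in young and 42.1 and 59.1 CPM in old mice, again without overlap. The difference of miR-19a-3p was similar in size, -0.50 ± 0.27, and did not pass (limma, adjusted p = 0.402).

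miR-17-3p, the less abundant arm of the miR-17 hairpin, measured 45.5 and 33.9 CPM in young and 19.6 and 26.4 CPM in old mice. This was the largest difference among the members, -0.76 ± 0.29 (limma, adjusted p = 0.266), and the ages did not overlap. The main arm miR-17-5p measured 306 and 276 CPM in young and 219 and 287 CPM in old mice. Here the ages overlapped, with a difference of -0.21 ± 0.23 (limma, adjusted p = 0.629). Within each library miR-17-5p was 6.72 and 8.13 times as high as miR-17-3p at 2 months and 11.2 and 10.9 times as high at 18 months. The 2 arms of this hairpin thus stood further apart in both 18-month libraries than in either 2-month library, by 0.58 on the log2 scale (two-sided exact permutation p = 0.333). This age comparison was not planned beforehand.

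miR-18a-5p measured 82.3 and 83.9 CPM in young and 48.3 and 77.3 CPM in old mice. The 18-month values lay below, but apart from each other, and the difference of -0.44 ± 0.28 did not pass (limma, adjusted p = 0.442). miR-20a-5p measured 134 and 153 CPM in young and 104 and 181 CPM in old mice. Its lowest and its highest value both came from 18-month libraries, and its difference was -0.06 ± 0.31 (limma, adjusted p = 0.929). miR-92a-3p, known for its action on blood vessel growth, measured 551 and 653 CPM in young and 643 and 610 CPM in old mice. Its 18-month values fell between the 2-month values, and the difference was 0.06 ± 0.21 (limma, adjusted p = 0.905). In all, 4 of the 7 members did not overlap between the ages and were lower at 18 months, where 41.4% of the 456 tested miRNAs did the same.

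**Figure D3:**
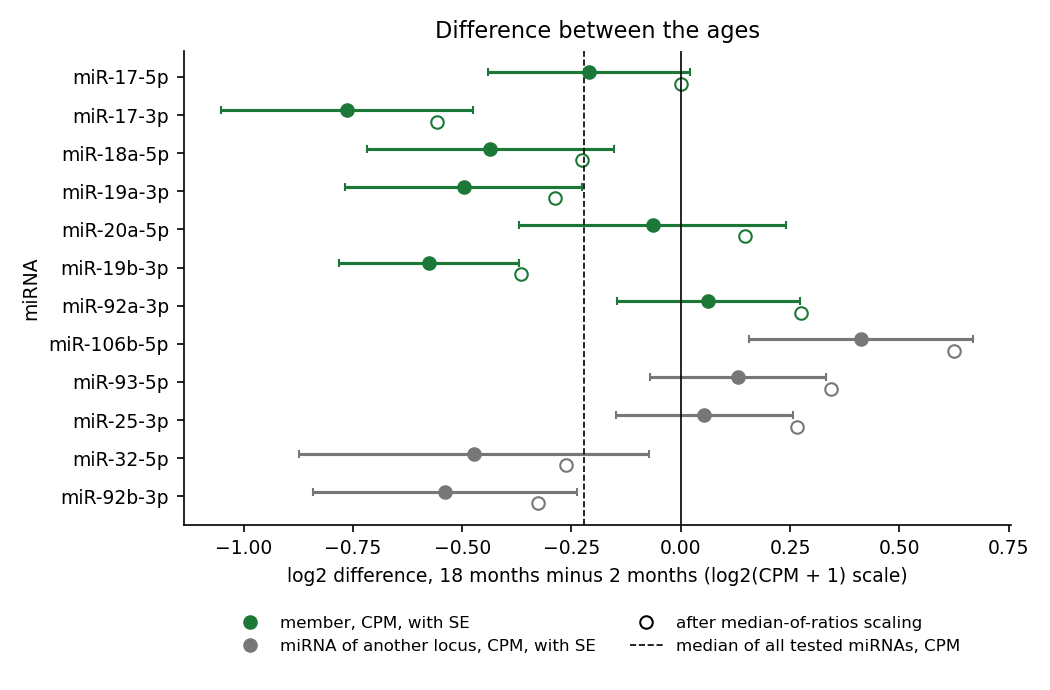
Difference between 18 and 2 months on the log2(CPM + 1) scale for the 7 members and for 5 miRNAs of other loci that share a seed with them. Filled points are on CPM with their SE, open points are after scaling by the median of ratios, and the dashed line marks the median of all tested miRNAs on CPM, -0.22. miR-17-3p and miR-19b-3p lie furthest to the left, and all open points lie to the right of the filled ones.

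Both calls depended on the scale and on single libraries. After scaling by the median of ratios, which moved the median of all miRNAs from -0.22 to -0.01, the difference was -0.36 for miR-19b-3p (limma, adjusted p = 0.5) and -0.56 for miR-17-3p (limma, adjusted p = 0.436), and neither was called. Over all alternatives tried, the limma, edgeR or DESeq2 adjusted p ran from 0.264 to 0.578 for miR-19b-3p and from 0.264 to 0.558 for miR-17-3p. The call of miR-19b-3p was lost without replicate 2 of 2 months (-0.51), without replicate 1 of 18 months (-0.48) and without replicate 2 of 18 months (-0.67). The call of miR-17-3p was lost without replicate 1 of 2 months and without replicate 1 of 18 months (-0.56 in each case). In turn, miR-18a-5p (-0.77) and miR-19a-3p (-0.74) passed limma at an unadjusted p under 0.05 once replicate 2 of 18 months was left out. Without replicate 1 of 18 months they stood at -0.10 and -0.26, and miR-17-5p at -0.01.

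Replicate 1 of 18 months held the lowest value of 6 of the 7 members. Against the mean of the other 3 libraries it was lower by 0.17 on the log2 scale for the median tested miRNA. For the 86 miRNAs whose main sequence had under 40% G and C this median was -0.34. It was -0.14 for the 244 miRNAs with 40% to 55% and -0.13 for the 126 with 55% or more. The members other than miR-92a-3p lay between -0.40 and -0.78, and miR-92a-3p lay at 0.09. The GC content of the main read was 36.4% for miR-19a-3p, 39.1% for miR-20a-5p, 40.9% for miR-19b-3p and 42.9% for miR-18a-5p. It was 47.8% for miR-17-5p, 54.5% for miR-92a-3p and 55% for miR-17-3p. The same library was low for miR-126a-3p of endothelium, with 2557 CPM where the others held 6489 to 9242 CPM, although miR-126a-5p, from the same hairpin, held 2865 CPM where the others held 2501 to 3000 CPM. The 2 listed endothelial miRNAs summed to 12243 and 11472 CPM in young and 5422 and 8990 CPM in old mice, and 1 of the 2 was called lower. Of the 4 miRNAs listed for red blood cells 3 were found, not miR-486a-5p, and they summed to 1805 and 3382 CPM in young and 1703 and 2827 CPM in old mice. Of these, miR-451a differed by 0.25 ± 0.37 and miR-144-3p by -0.92 ± 0.56 on the log2 scale, and neither was called. The sums were 3139 and 3566 CPM against 2767 and 2897 CPM for 4 white blood cell miRNAs and 6565 and 5180 CPM against 4119 and 6365 CPM for 2 oligodendrocyte miRNAs, with none called. The part of these values in the results on the members was not tested, and in whole tissue fewer cells of a type and less RNA per cell cannot be told apart.

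A miRNA finds messenger RNAs by its seed, so each member was set against all reads with its 6mer seed (positions 2 to 7). The reads come from whole tissue, so these shares are not those of any single cell type. The cluster supplied nearly all of the miR-19 seed and of the miR-18a seed, and a minority of the others. For the miR-19 seed (GUGCAA) the share was 97.3% ± 0.234 (SD, n = 4), and for the miR-18a seed (AAGGUG) 95.9% ± 1.11. Small amounts of the miR-19 seed came from reads named miR-301a-3p (6.55 CPM) and miR-130a-3p (3.92 CPM).

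For the other 3 seeds, miRNAs of other loci outweighed the cluster. The cluster supplied 24.8% ± 3.83 of the miR-92a seed (AUUGCA), 18.7% ± 3.13 of the miR-17 seed (AAAGUG) and 33.7% ± 5.40 of the miR-17-3p seed (CUGCAG). Reads of the miR-92a seed came mostly from miR-92b-3p (916 CPM), miR-92a-3p (595 CPM), miR-25-3p (569 CPM) and miR-32-5p (323 CPM). Those of the miR-17 seed came mostly from miR-93-5p (1044 CPM) and miR-106b-5p (687 CPM), before miR-17-5p (259 CPM) and miR-20a-5p (141 CPM). For the miR-17-3p seed, shifted reads of miR-666-3p carried 50.02 CPM and miR-17-3p itself 30.4 CPM.

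**Figure D4:**
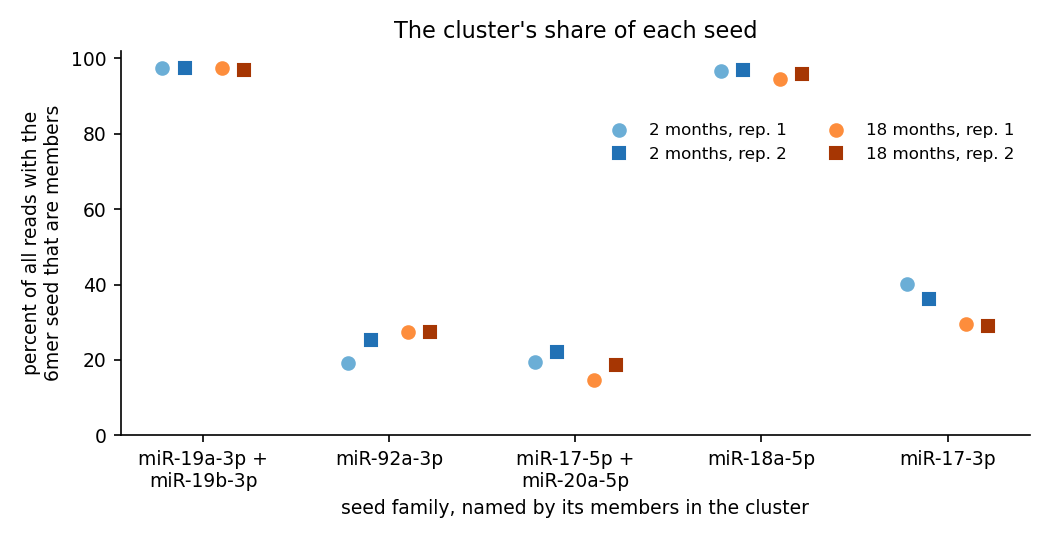
Percent of all reads with a 6mer seed that belong to the cluster, for each seed family and library. The miR-19 and miR-18a seeds lie above 94% in every library, and the 3 other seeds lie between 14.6% and 40.2%.

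Summed over all carriers, the order of the seeds was another one than within the cluster. All reads with the miR-19 seed came to 779 and 872 CPM in young and 513 and 605 CPM in old mice. All reads with the miR-92a seed came to 2751 and 2510 CPM in young and 2289 and 2147 CPM in old mice, and those with the miR-17 seed to 2180 and 1871 CPM against 2115 and 2435 CPM. The miR-18a seed came to 83.9 and 85.2 CPM in young and 50.9 and 79.8 CPM in old mice, below the miR-17-3p seed with 110 and 89.6 CPM against 65.9 and 88.3 CPM.

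Of these 5 seeds, that of miR-19 was called lower at 18 months (-0.56 ± 0.20, limma, adjusted p = 0.292), where 15.3% of the 952 tested seeds were called, 9.35% lower and 5.99% higher. The call was lost after scaling by the median of ratios (-0.35), without replicate 2 of 2 months (-0.48) and without replicate 1 of 18 months (-0.45). The miR-18a seed (-0.40 ± 0.27), the miR-17-3p seed (-0.38 ± 0.25) and the miR-92a seed (-0.25 ± 0.20) did not pass, nor did the miR-17 seed (0.17 ± 0.21). The miR-18a seed passed the unadjusted threshold once replicate 2 of 18 months was left out (-0.72), and stood at -0.08 without replicate 1 of 18 months. Leaving out 1 library at a time gave -0.59 to -0.17 for the miR-17-3p seed, -0.31 to -0.18 for the miR-92a seed and 0.06 to 0.28 for the miR-17 seed.

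The closest relatives of the cluster are the miR-106b to miR-25 cluster in an intron of Mcm7, a gene of DNA replication, and the paralogous cluster on the X chromosome. The Mcm7 cluster was more abundant than the miR-17 to miR-92a cluster in 3 of 4 libraries. miR-106b-5p, of the miR-17 seed, measured 688 and 501 CPM in young and 690 and 886 CPM in old mice. miR-93-5p, of the same seed, measured 1064 and 952 CPM in young and 1111 and 1093 CPM in old mice. Both were without overlap in the higher direction, as were 12.1% of tested miRNAs, with differences of 0.41 ± 0.26 (limma, adjusted p = 0.442) and 0.13 ± 0.20 (limma, adjusted p = 0.745). After scaling by the median of ratios miR-106b-5p passed the unadjusted threshold (0.62, limma, adjusted p = 0.340, with a range of 0.296 to 0.787 over the alternatives). Leaving out 1 library at a time moved the difference of miR-106b-5p between 0.18 (without replicate 2 of 2 months) and 0.64 (without replicate 1 of 2 months), and that of miR-93-5p between 0.05 and 0.21 for the same libraries. miR-25-3p, of the miR-92a seed, measured 588 and 561 CPM in young and 629 and 565 CPM in old mice, a difference of 0.05 ± 0.20.

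Set against its relatives within each library, the cluster was 0.813 and 1.03 times the sum of the 3 Mcm7 miRNAs at 2 months and 0.637 and 0.700 times at 18 months. The ages did not overlap (difference of -0.45 on the log2 scale, two-sided exact permutation p = 0.333). This age comparison was not planned beforehand, and how many ratios of other miRNAs were without overlap was not counted. miR-17-5p was 0.444 and 0.550 times as high as miR-106b-5p at 2 months and 0.317 and 0.325 times as high at 18 months. miR-92a-3p and miR-25-3p, by contrast, kept close to each other, with ratios of 0.937 and 1.16 at 2 months and 1.02 and 1.08 at 18 months. The remaining carriers of the miR-92a seed varied widely. miR-32-5p measured 277 and 479 CPM in young and 188 and 365 CPM in old mice (-0.47 ± 0.40). miR-92b-3p, which was named only after its values were seen, measured 1404 and 868 CPM in young and 883 and 653 CPM in old mice (-0.54 ± 0.30). For miR-32-5p the difference was 0.005 without replicate 1 of 18 months and -0.95 without replicate 2 of 18 months. For miR-92b-3p it was -0.19 without replicate 1 of 2 months, and -0.89 without replicate 2 of 2 months, where it passed the unadjusted threshold.

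Little came from the X cluster under names of its own. miR-106a-5p averaged 1.38 CPM, miR-20b-5p 2.58 CPM and miR-363-3p 1.37 CPM, and no row of the table bore the names miR-18b-5p, miR-19b-2-5p or miR-92a-2-5p. These levels were too low for the test, which needed a mean of 10 CPM.

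The reads of miR-92a-3p can also be split by the hairpin they match, because its 2 hairpins differ in the base after position 21. The 2 sequences are shown in lower case with that base in capitals, as DNA letters in the way the table writes them.
miR-92a-3p, matching the chromosome 14 hairpin alone: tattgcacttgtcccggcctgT
miR-92a-3p, matching the X hairpin alone: tattgcacttgtcccggcctgA

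Of all miR-92a-3p reads, 79.9% matched the chromosome 14 hairpin and not that of the X chromosome, and 2.47% the reverse. A further 4.32% matched both and 13.3% neither, the latter mostly reads with added bases at the 3′ end. An A added to the read of 21 nt cannot be told apart from a read of the X hairpin. In the same way, an added U cannot be told apart from a read of the chromosome 14 hairpin. The reads that matched chromosome 14 alone measured 418 and 534 CPM in young and 514 and 497 CPM in old mice, and those that matched the X hairpin alone 18.6 and 13.2 CPM against 16.3 and 12.7 CPM. For miR-19b-3p no such split was possible, since 95.2% of its reads matched both hairpins. Reads that matched the X hairpin alone averaged 0.702 CPM.

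The opposite arms of the hairpins were scarce in the RISC, apart from miR-17-3p. miR-18a-3p averaged 2.12 CPM, miR-19b-1-5p 2.62 CPM, miR-20a-3p 3.58 CPM and miR-92a-1-5p 0.598 CPM, and no row bore the name miR-19a-5p. miR-20a-5p was 27.5 to 56.2 times as high as its opposite arm and miR-18a-5p 24.5 to 78.5 times. The ratios for miR-92a-3p, 578 to 1861, rested on 3 to 10 reads of the opposite arm in a library. miR-19b-3p was 154 and 263 times as high as miR-19b-1-5p at 2 months and 277 and 490 times as high at 18 months, on 49 and 34 reads of miR-19b-1-5p against 18 and 10.

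The members were read at more than 1 length, with the difference at the 3′ end. The seed of the most abundant sequence was kept in 93.0% to 98.8% of a member's reads, averaged over the libraries. The 2 most abundant sequences of miR-19b-3p and of miR-17-5p are shown because their 23-nt reads were called between the ages, with bases after position 21 in capitals.
miR-19b-3p, 22 nt: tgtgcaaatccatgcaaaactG
miR-19b-3p, 23 nt: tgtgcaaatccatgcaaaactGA
miR-17-5p, 23 nt: caaagtgcttacagtgcaggtAG
miR-17-5p, 22 nt: caaagtgcttacagtgcaggtA

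The 23-nt read of miR-19b-3p measured 176 and 178 CPM in young and 62.6 and 105 CPM in old mice. The 22-nt read measured 376 and 378 CPM in young and 293 and 236 CPM in old mice. Both were lower in each 18-month library, by -1.11 ± 0.33 (limma, adjusted p = 0.335) for the 23-nt read and by -0.52 ± 0.28 (limma, adjusted p = 0.567) for the 22-nt read. The first was called and the second was not, and without replicate 1 of 18 months the 23-nt read differed by -0.74 and was no longer called. As a share of all miR-19b-3p reads, those of 23 nt made up 28.1% and 26.3% at 2 months and 15.2% and 23.1% at 18 months.

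For miR-17-5p, 1 of the 2 sequences shown, the 23-nt read, was lower without overlap. This read measured 137 and 141 CPM in young and 73.0 and 98.7 CPM in old mice, and was called lower, with a difference of -0.71 ± 0.30 on the log2 scale (limma, adjusted p = 0.475). This call was lost when any of 3 libraries was left out, namely replicate 1 of 2 months (-0.72), replicate 2 of 2 months (-0.69) and replicate 1 of 18 months (-0.49), and after scaling by the median of ratios (-0.50). In all it was lost under 8 of 13 alternatives, among them a pseudocount of 5, no filter on low values, limma without the trend and DESeq2. The 22-nt read measured 55.6 and 35.9 CPM in young and 39.6 and 57.6 CPM in old mice, with overlap. Reads of 23 nt made up 58.0% and 67.7% of miR-17-5p at 2 months and 51.0% and 51.6% at 18 months. Reads of miR-17-5p with a U added at the 3′ end, which the hairpin does not encode, made up 8.93% and 10.4% at 2 months and 13.1% and 13.9% at 18 months. For miR-18a-5p this share was lower in old mice, with 7.18% and 5.76% against 2.35% and 3.42%, and for miR-20a-5p it was higher, with 6.98% and 7.78% against 10.7% and 8.12%. It overlapped between the ages for miR-17-3p, with 12.6% and 17.1% against 8.22% and 13.4%. For miR-19b-3p the share with a U tail was lower without overlap, with 3.24% and 3.26% against 1.46% and 3.21%, and for miR-19a-3p and miR-92a-3p it overlapped. The shares of miR-18a-5p rest on 511 to 955 reads in a library. The shares with a U tail were not tested, and how many of all miRNAs were without overlap was not counted.

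The mean length was shorter at 18 months without overlap for 3 members. It was 22.50 and 22.57 nt against 22.37 and 22.36 nt for miR-17-5p, 22.52 and 22.66 nt against 22.49 and 22.45 nt for miR-20a-5p, and 22.08 and 22.01 nt against 21.90 and 21.88 nt for miR-19b-3p. miR-17-3p was longer at 18 months, with 21.71 and 21.41 nt against 21.73 and 21.87 nt. Leaving out replicate 2 of 2 months brought the difference of miR-17-3p from 0.24 to 0.09 nt and that of miR-20a-5p from -0.13 to -0.056 nt, and leaving out replicate 1 of 2 months brought them to 0.39 and -0.20 nt. For these 4 members the two-sided exact permutation p was 0.333, the smallest that 2 against 2 libraries allow (0.583 after adjustment over 14 tests of length and seed). How many of all miRNAs had mean lengths without overlap was not counted. The mean over all miRNA reads lay between 21.55 and 21.61 nt in every library. miR-92a-3p was the most uniform member, with 73.5% to 79.2% of its reads at 22 nt, and its main read measured 376 and 489 CPM in young and 480 and 464 CPM in old mice.

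**Figure D5:**
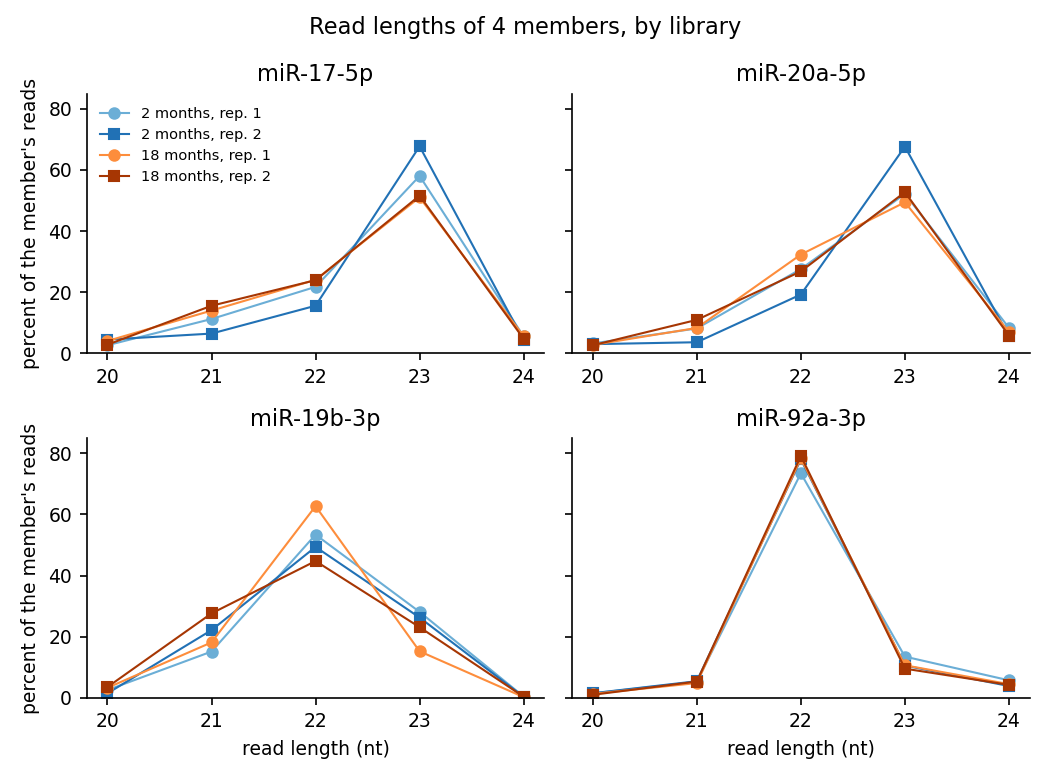
Percent of a member's reads at each length from 20 to 24 nt in the 4 libraries. The share at 23 nt is lower in both 18-month libraries for miR-17-5p (51.0% and 51.6%) and miR-19b-3p (15.2% and 23.1%), and the 4 lines of miR-92a-3p lie close together.

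Of the 302 sequences of the members 71 reached the mean of 1 CPM needed for the test, and these held 96.7% of the reads. Of the 71, 8 were called lower at 18 months and 0 higher by limma at an unadjusted p under 0.05, and none after adjustment. Over all 14287 tested sequences 10.1% were called, 4.23% lower and 5.87% higher. These were drawn from all sequences, with or without a miRNA name, and their median difference was -0.0092, where that of miRNAs was -0.22. Among the tested miRNAs, summed by name, 12.1% were called lower. The share among sequences of miRNAs alone was not computed. Among the 2 most abundant sequences of each member, the 23-nt reads of miR-19b-3p and miR-17-5p were the ones called. The 8 belonged to miR-17-3p (3), miR-18a-5p (2), miR-19b-3p (2) and miR-17-5p (1), and none to miR-92a-3p, miR-20a-5p or miR-19a-3p. Sequences of a member share its precursor and are not independent of each other.

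The study scores each 6mer seed by how well cells survive it, as a mean over 3 mouse cell lines in percent of the control, where a low score marks a toxic seed. The seeds of the cluster are of the kind that cells survive. The scores were 86.7% for miR-17-3p, 86.2% for miR-92a-3p, 84.4% for miR-17-5p and miR-20a-5p, 75.8% for miR-19a-3p and miR-19b-3p and 73.6% for miR-18a-5p. Weighted by reads, the cluster averaged 80.5% and 80.6% at 2 months and 81.6% and 81.2% at 18 months. All R-sRNAs averaged 57.7% and 57.9% at 2 months and 58.1% and 58.4% at 18 months. Reads with a score of 70% or more made up 98.2% to 98.4% of the cluster and 24.99% to 26.1% of all R-sRNAs. The difference of the cluster between the ages was 0.87 (two-sided exact permutation p = 0.333), while that within single members ran from -0.13 to 0.52.

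The miRNAs whose levels moved across the 4 libraries most like the summed cluster, by the root mean square distance of their centred log2(CPM + 1) values, were miR-369-5p (0.040), let-7b-3p (0.042), miR-125b-2-3p (0.048), miR-125b-1-3p (0.052) and miR-34b-3p (0.052). The nearest, miR-369-5p, measured 1064 and 1095 CPM in young and 832 and 923 CPM in old mice. The points of this measure are only 4 libraries.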

How the data were processed

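Small RNAs bound to Ago1-4 were sequenced from 2 libraries of each age. The authors demultiplexed the reads, trimmed adapters with Trim Galore, dropped rare sequences, named the others by BLAST against mouse small RNAs and deposited CPM (reads per 1000000) for each sequence and library. Tool versions are not given in the sources used here. The viability score of each 6mer seed, also deposited by the authors, is in percent of the control. The labels and the methods differ in the mass of tissue used. Every nonzero CPM value lay within 0.00051 CPM of a whole number of reads (1 read is worth 0.0878 to 0.110 CPM).

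CPM were summed by miRNA name and by seed. limma 3.58.1 (R 4.3.3) with a trend was run on log2(CPM + 1) of all miRNAs and seeds with a mean of 10 CPM or more and all sequences of 1 CPM or more. Calls use an unadjusted p under 0.05, with Benjamini-Hochberg adjusted p beside. Only the threshold is taken from the study, which does not name its test. Sums, ratios and shares were compared by exact permutation or sign-flip tests. Age comparisons of ratios were not planned beforehand. Among those run, the log2 ratios of miR-17-5p and of miR-20a-5p to miR-92a-3p overlapped between the ages, with differences of -0.27 and -0.13. On data simulated with a dispersion of 0.05, 100% of 4-fold changes among the miRNAs were called, and 4.30% of unchanged miRNAs. The libraries had a common dispersion of 0.0578 for miRNAs and 0.121 for sequences. Smaller changes, such as those of the members, and a shift of the median were not simulated. edgeR 4.0.16 and DESeq2 1.42.0 on the recovered reads were alternatives.

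The members and all lists were chosen with earlier results of these data known. Named were the 7 members, the opposite arms, the clusters of the X chromosome and of Mcm7, miR-32-5p, the 5 miRNAs nearest in profile and the 2 most abundant sequences of a member. miR-92b-3p and miR-666-3p were added after their values were seen.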

Additional observations from a re-analysis of the deposited data

Results flagged for a closer look

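A further 71 sequences matched a hairpin of the cluster but carried no mature name, and so entered no comparison. They measured 14.02 and 13.9 CPM in young and 11.4 and 13.1 CPM in old mice, with a mean of 13.1 CPM, above the 0.263 to 0.331 CPM that 3 reads make.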

How the results depend on the processing

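miR-17-3p, miR-18a-5p, miR-19a-3p and miR-19b-3p were lower at 18 months under each alternative run, with differences from -0.97 to -0.10. With the median of ratios, edgeR and DESeq2 the difference of miR-17-5p became 0.0013, 0.021 and 0.010, and that of miR-20a-5p 0.15, 0.20 and 0.19 on the log2 scale. Leaving out 1 library at a time gave -0.46 to 0.33 for miR-20a-5p, -0.060 to 0.19 for miR-92a-3p, -0.022 to 0.13 for miR-25-3p, -0.95 to 0.0050 for miR-32-5p, -0.21 to 0.40 for the 22-nt read of miR-17-5p and -0.053 to 0.33 for the 22-nt read of miR-92a-3p. Over all reads with the seeds, whatever their name, the log2 ratio of the miR-19 to the miR-92a seed became -1.83 and that of the miR-18a to the miR-17-3p seed -0.25, because other loci add to the denominators. The age difference in reads with the main seed ran from -0.54 to 0.36 percentage points for miR-17-5p (0.028 with reads of 20 nt or longer), from -0.95 to 0.34 for miR-19a-3p and from -0.44 to 0.88 for miR-19b-3p. That in mean length ran from -0.10 to 0.0085 nt for miR-19a-3p and from -0.057 to 0.012 nt for miR-92a-3p, and was -0.016 nt for miR-18a-5p with reads of 20 nt or longer. Without miR-92a-3p its 2 places in the order of the families gave no value, and the viability difference of 0.87 was 0.33 without miR-19b-3p and miR-92a-3p.

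The number of miRNAs called, 74, became 125 with no filter, 43 with a minimum of 100 CPM and 1 at an adjusted p under 0.05 (limma). For the 146 seeds these were 326, 57 and 3. The 1443 sequences became 3327 with no filter, 424 with a minimum of 10 CPM, 6 at an adjusted p under 0.05 (limma) and 941 in DESeq2. Scaling by the median of ratios moved the share of calls in the higher direction from 25.7% to 60.9% for miRNAs, from 39.0% to 78.1% for seeds and from 58.1% to 81.7% for sequences. The labels do not say whether libraries with the same replicate number share an origin. Their deviations correlated at 0.18 over the miRNAs, which with 2 pairs cannot settle it. With the replicate number as a block, 79 miRNAs, 130 seeds and 1530 sequences were called, miR-19b-3p and miR-92b-3p among them and miR-17-3p not.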
